A study of Mus musculus with 12 samples.

Results

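The 10 genes described here are the adipogenic transcription factor genes *Pparg*, *Cebpa*, *Cebpb*, *Cebpd*, *Zfp423*, *Ebf1* and *Ebf2*, the GATA factor gene *Gata3*, the zinc finger gene *Zfp467*, and *Lpl*, a gene of fat uptake. They were taken by name, and all 10 were found among the 56980 rows of the count matrix and all were among the 17691 genes tested, those with 10 or more counts summed over the 12 libraries. The RNA came from W-20 cells (W-20-17), a murine bone marrow stromal cell (BMSC) line. There were 4 groups of 3 libraries, namely WT cells with vehicle (PBS), WT cells with 50 nM PTH, Y428F cells with vehicle and Y428F cells with 50 nM PTH, each for 2 h. WT cells are the unmodified line, and Y428F cells are a stable line that carries an introduced YAP with the Y428F change of tyrosine to phenylalanine. GEO's genotype field gives WT for all 12 libraries, so the titles alone set the Y428F libraries apart. The titles give Y428F only, whereas the study's text on the sequencing names the line both as S381A/Y428F and as Y428F. The study made its lines with YAP plasmids, and no cells with introduced WT YAP or with S381A alone were analysed here, so effects of Y428F itself and of anything else that sets the lines apart cannot be told apart. Nothing in the labels says that the 3 libraries of a group came from separate cultures, so the p-values measure the spread between these libraries, which may be technical. Library totals ranged from 17127897 to 19057319 counts, and mitochondrial genes took 0.703% to 1.02% of them.

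Adipocyte differentiation is known to begin with C/EBPβ and C/EBPδ, which switch on *Pparg* and *Cebpa*. PPARγ and C/EBPα then maintain each other and drive the genes of the fat cell, such as *Lpl*. Zfp423 and the EBF factors act upstream of *Pparg*, GATA3 holds preadipocytes back, and Zfp467 favors the adipocyte (Adi) over the osteoblast (OB) fate of BMSCs. PTH is known to turn BMSCs away from the Adi fate.

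Each gene is located in GRCm39, the build of the deposited counts, with the GENCODE vM39 annotation. *Pparg* (ENSMUSG00000000440.13) lies at chr6:115337675-115468268 and *Zfp467* (ENSMUSG00000068551.13) at chr6:48400971-48422781. *Cebpa* (ENSMUSG00000034957.11) lies at chr7:34818718-34821353, *Cebpb* (ENSMUSG00000056501.4) at chr2:167530835-167532338 and *Cebpd* (ENSMUSG00000071637.6) at chr16:15705150-15708895. *Zfp423* (ENSMUSG00000045333.16) lies at chr8:88388438-88687289, *Ebf1* (ENSMUSG00000057098.15) at chr11:44508138-44898918 and *Ebf2* (ENSMUSG00000022053.14) at chr14:67470736-67668394. *Gata3* (ENSMUSG00000015619.11) lies at chr2:9861889-9894845 and *Lpl* (ENSMUSG00000015568.17) at chr8:69284603-69360100. All 10 are protein-coding.

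RefSeq start sites gave 11 promoter windows, from 250 bases before to 50 bases after a start, for 7 of the genes, and each window was found at 1 place in GRCm39. PTH signals through cAMP, and cAMP-responsive genes often carry the cAMP response element (CRE), so the windows were searched on both strands for TGACGTCA and for its half-site TGACG, which every full element contains. No window held the full element, which 1.79% of all 32851 RefSeq windows did. The half-site was found in *Cebpb*, at 3 positions, and in 1 of the *Ebf1* windows, and 20.8% of all windows held it. The C/EBP motif TTGCGCAA, the TEAD motif GGAATG, the GATA motif AGATAA and the EBF motif had no match in any of the 11 windows. Among all windows their shares were 0.183%, 14.7%, 11.2% and 0.904%. The stretches shown are those of *Zfp467* and *Pparg*, the genes called with PTH in both lines, and of *Cebpb*, the gene with 3 matches. They run 5′ to 3′ on the gene's strand, at chr6:48422079-48422205 (minus strand) for *Zfp467*, chr6:115398777-115398882 (plus strand, before the most downstream of its RefSeq starts) for *Pparg*, and chr2:167530585-167530834 (plus strand) for *Cebpb*. Bases inside annotated exons were left out, and capitals mark the half-site on either strand.
Zfp467: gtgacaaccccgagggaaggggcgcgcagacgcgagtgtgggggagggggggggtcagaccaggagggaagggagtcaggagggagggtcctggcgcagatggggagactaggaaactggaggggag
Pparg: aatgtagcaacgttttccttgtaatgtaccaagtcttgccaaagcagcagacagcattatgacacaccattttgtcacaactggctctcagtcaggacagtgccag
Cebpb: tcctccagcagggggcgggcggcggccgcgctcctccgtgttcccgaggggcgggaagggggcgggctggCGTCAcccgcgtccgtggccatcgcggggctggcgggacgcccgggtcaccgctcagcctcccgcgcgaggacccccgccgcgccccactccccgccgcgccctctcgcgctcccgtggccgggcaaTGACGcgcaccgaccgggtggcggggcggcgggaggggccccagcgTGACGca

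Expression is given in CPM, counts brought to a common library size with edgeR's TMM factors. A change is a log2 fold change from 1 edgeR quasi-likelihood fit of all 12 libraries, with its standard error (SE), and a gene was called at an adjusted p under 0.05 (Benjamini-Hochberg over the 17691 genes). The comparisons share libraries, so the values of a gene in them are not independent.

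After 2 h of PTH, WT cells had more *Pparg* mRNA and less *Zfp423*, *Zfp467*, *Ebf2* and *Gata3* mRNA, so that 1 of the 10 genes was called higher and 4 lower. Of all genes tested, 13.4% were called, 7.42% higher and 6.01% lower. The libraries of the 2 groups did not overlap for 8 of the 10 genes, 2 higher and 6 lower, and for 26.4% of all genes, 13.2% in either direction. In Y428F cells *Pparg* was called higher and *Zfp467* lower with PTH, and no other of the 10 was called, against 12.4% of all genes (6.61% higher and 5.78% lower). Here 6 of the 10 genes did not overlap, 2 higher and 4 lower, and 30.8% of all genes (15.5% higher and 15.4% lower). The shares of all genes called depended on single libraries. Without the second vehicle-treated WT library 1087 genes were called higher and 643 lower in WT cells. Without the first vehicle-treated Y428F library these counts were 819 and 616 in Y428F cells. Scaling by library totals alone changed the balance of calls over all genes from 1312 higher and 1063 lower to 956 and 1608 in WT cells, and from 1170 and 1022 to 888 and 1445 in Y428F cells, with the same members called there except *Cebpb*, which was then also called lower in WT cells (log2 fold change -0.24, adjusted p = 0.0127).

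With vehicle, Y428F cells had more *Pparg*, *Cebpb* and *Lpl* and less *Cebpa*, *Cebpd*, *Zfp423*, *Zfp467*, *Ebf1* and *Gata3* mRNA than WT cells, 3 genes called higher and 6 lower. This comparison called 45.1% of all genes (22.4% higher and 22.7% lower), and the libraries did not overlap for 9 of the 10 genes, 3 higher and 6 lower, and for 53.8% of all genes (27.5% higher and 26.3% lower). With PTH the same 9 genes were called in the same directions and *Ebf2* was called higher in Y428F cells. All 10 genes were without overlap there, 4 higher and 6 lower, against 51.9% of all genes (25.6% higher and 26.3% lower), and 45.7% of all genes were called (22.8% higher and 23.0% lower). A call between the lines was thus common in these libraries. Of the 13001 genes with at least 10 counts in every library of a group, 3996 were called higher and 3850 lower with vehicle. With PTH in WT cells 1627 of them were called higher and 1073 lower. These shares are larger than those over all genes tested. The sizes set the 10 genes apart from each other, since 2.55% of all genes differed more with vehicle than *Zfp423*, 8.04% more than *Cebpa*, 10.9% more than *Zfp467* and 21.7% more than *Gata3*.

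**Figure D1:**
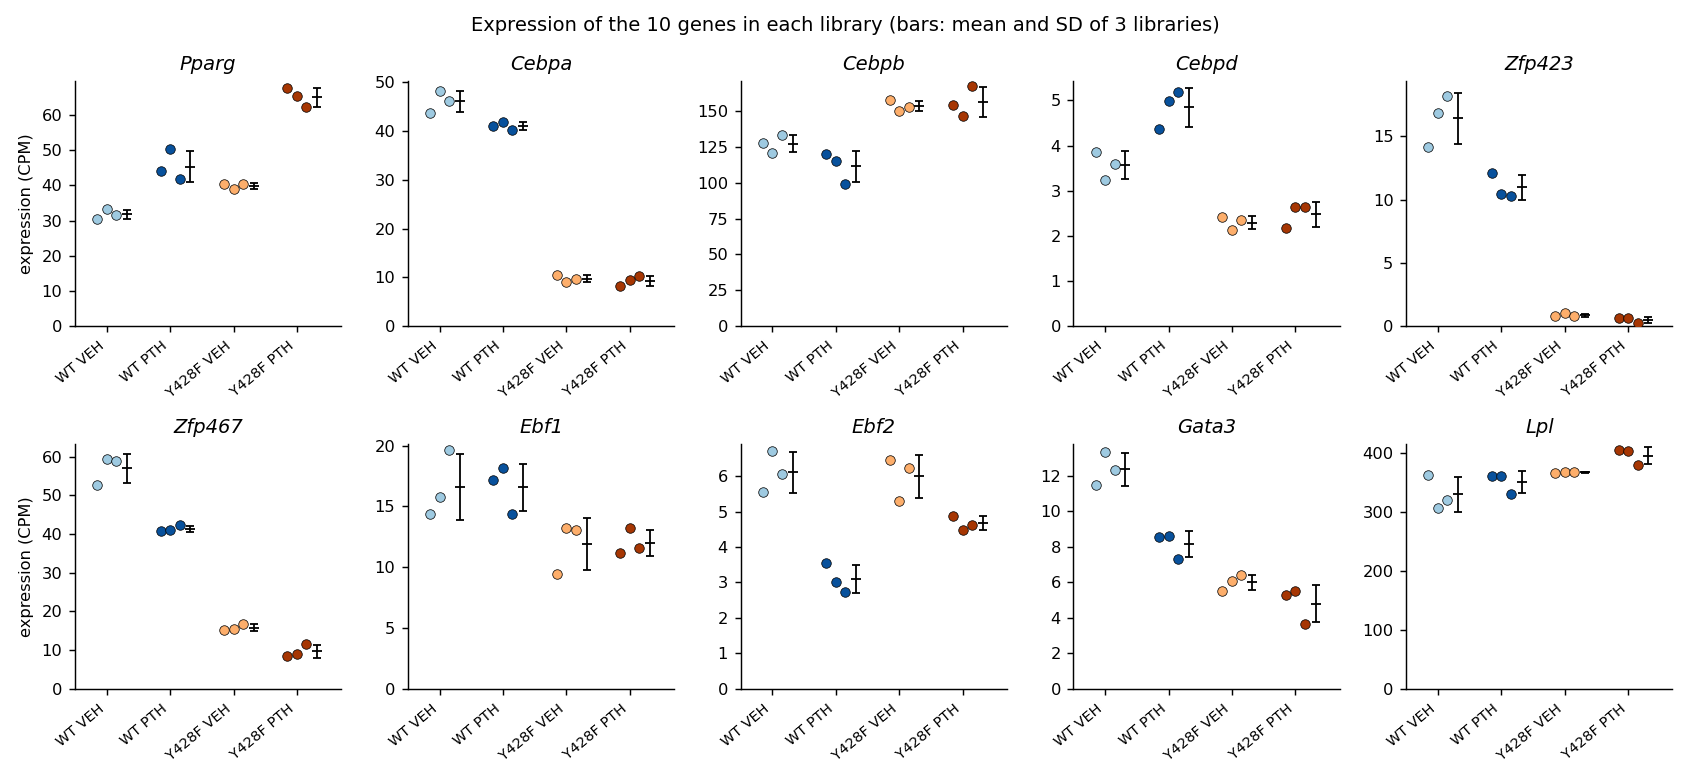
Expression in CPM (vertical axes, from 0) of the 10 genes in each of the 12 libraries, by group (horizontal axes), with points for libraries and bars for the mean and SD of 3 libraries. *Pparg* was higher and *Zfp467* lower with PTH in both lines without overlap, and *Zfp423* was at 14.2 to 18.2 CPM in WT cells with vehicle and at most 1.01 CPM in Y428F cells.

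*Pparg* encodes the nuclear receptor PPARγ, without which fat cells do not form. Its expression in WT cells was 30.4, 33.2 and 31.7 CPM with vehicle and 43.9, 50.2 and 41.8 CPM with PTH. Y428F cells had 40.3, 38.9 and 40.5 CPM with vehicle and 67.5, 65.5 and 62.1 CPM with PTH. In each line all PTH-treated libraries were above all vehicle-treated libraries, and for each treatment the Y428F libraries were above the WT libraries. The increase with PTH was 1.43-fold in WT cells (log2 fold change 0.51, SE 0.073, adjusted p = 5.4e-05) and 1.63-fold in Y428F cells (0.71, SE 0.070, adjusted p = 9.62e-07). Y428F cells exceeded WT cells 1.26-fold with vehicle (adjusted p = 8.35e-04) and 1.44-fold with PTH (adjusted p = 2.85e-06).

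*Cebpa* encodes C/EBPα, the partner of PPARγ in the mature Adi program. It was expressed at 43.8, 48.2 and 46.2 CPM in vehicle-treated WT cells and at 41.1, 41.9 and 40.1 CPM after PTH. In Y428F cells it was at 10.5, 9.15 and 9.67 CPM with vehicle and 8.26, 9.43 and 10.3 CPM with PTH. The lines were far apart for both treatments, whereas the treatments overlapped in Y428F cells and were close in WT cells. With vehicle *Cebpa* was 4.72-fold lower in the Y428F line (log2 fold change -2.24, SE 0.088, adjusted p = 3.37e-14), and with PTH 4.39-fold lower (-2.14, SE 0.090, adjusted p = 9.18e-14). The change with PTH was not called in WT cells (log2 fold change -0.17, 95% interval -0.33 to -0.0039, adjusted p = 0.185) or in Y428F cells (-0.063, 95% interval -0.27 to 0.15, adjusted p = 0.78).

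*Cebpb* and *Cebpd* encode the C/EBP factors that act first. *Cebpb* was at 128, 121 and 133 CPM in vehicle-treated and 119.7, 115 and 99.2 CPM in PTH-treated WT libraries. The Y428F libraries had 157, 150.1 and 153 CPM with vehicle and 154, 147 and 168 CPM with PTH. All 6 Y428F libraries were above all 6 WT libraries. Against WT cells, *Cebpb* was 1.21-fold higher in Y428F cells with vehicle (log2 fold change 0.27, SE 0.068, adjusted p = 0.00256) and 1.40-fold higher with PTH (0.49, SE 0.068, adjusted p = 5.19e-06). Its change with PTH in WT cells missed the limit (log2 fold change -0.19, 95% interval -0.34 to -0.049, adjusted p = 0.0713), but passed it without the first PTH-treated WT library (adjusted p = 0.048), with DESeq2's Wald test (0.0459) and with no filter on low counts (0.0321). In Y428F cells the change was 0.025 (95% interval -0.12 to 0.17). *Peds1*, on the opposite strand, shares 908 bases with *Cebpb*, and the strand setting of the counting is not given in the sources used here, so reads there may be shared between them. *Peds1* was not called in any comparison (log2 fold change between lines with vehicle -0.14, adjusted p = 0.0714).

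*Cebpd* was scarce. It had 3.86, 3.24 and 3.60 CPM in vehicle-treated and 4.36, 4.98 and 5.18 CPM in PTH-treated WT libraries. Y428F libraries had 2.41, 2.12 and 2.35 CPM with vehicle and 2.16, 2.64 and 2.64 CPM with PTH. All Y428F libraries were below all WT libraries of the same treatment, and the treatments overlapped only in Y428F cells. *Cebpd* was 1.56-fold lower in Y428F cells with vehicle (log2 fold change -0.64, SE 0.18, adjusted p = 0.00613) and 1.95-fold lower with PTH (-0.96, SE 0.18, adjusted p = 1.12e-04). With PTH its log2 fold change was 0.44 in WT cells (95% interval 0.090 to 0.79, adjusted p = 0.0929) and 0.11 in Y428F cells (95% interval -0.28 to 0.51, adjusted p = 0.789). *Spidr*, which shares 1809 bases with *Cebpd* on the opposite strand, was higher in Y428F cells (log2 fold change 0.34 with vehicle, adjusted p = 0.0022), the opposite direction.

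*Zfp467* encodes a zinc finger cofactor that promotes the Adi fate of BMSCs. Vehicle-treated WT libraries had 52.7, 59.4 and 58.8 CPM, and PTH-treated WT libraries 40.7, 41.2 and 42.3 CPM. In Y428F libraries it was at 15.1, 15.4 and 16.8 CPM with vehicle and 8.43, 8.93 and 11.6 CPM with PTH. The 4 groups fell into a clear order without overlap, from vehicle-treated WT cells at the top to PTH-treated Y428F cells at the bottom. PTH lowered *Zfp467* 1.38-fold in WT cells (log2 fold change -0.46, SE 0.086, adjusted p = 8.98e-04) and 1.63-fold in Y428F cells (-0.70, SE 0.11, adjusted p = 1.25e-04). Y428F cells had 3.62-fold less than WT cells with vehicle (log2 fold change -1.86, SE 0.093, adjusted p = 1.33e-12) and 4.28-fold less with PTH (-2.10, SE 0.10, adjusted p = 6.5e-13). It was the only one of the 10 genes called lower with PTH in both lines, and its calls held in every alternative fit.

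*Zfp423* encodes the zinc finger factor that marks cells committed to the preadipocyte state. It was at 14.2, 16.8 and 18.2 CPM in vehicle-treated and 12.1, 10.5 and 10.3 CPM in PTH-treated WT libraries. In Y428F cells only 14, 20 and 14 counts were found with vehicle (0.767, 1.01 and 0.764 CPM) and 11, 11 and 4 counts with PTH (0.610, 0.618 and 0.220 CPM). The gene was thus near the lower limit of detection in the Y428F line, and in WT cells the 2 treatments did not overlap. *Zfp423* was lower in Y428F cells with vehicle (log2 fold change -4.26, SE 0.19, adjusted p = 2.83e-13) and 22.4-fold lower with PTH (-4.49, SE 0.22, adjusted p = 1.23e-12). PTH lowered it in WT cells (log2 fold change -0.58, SE 0.13, adjusted p = 0.00587), a call that was lost without the third vehicle-treated WT library (-0.50, adjusted p = 0.0516). In Y428F cells the log2 fold change was -0.81 with a 95% interval of -1.52 to -0.10 (adjusted p = 0.139), so a change of the WT size could not be detected at this depth.

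*Ebf1* and *Ebf2* encode early B cell factors, which open the *Pparg* locus in preadipocytes. *Ebf1* was at 14.4, 15.8 and 19.6 CPM in vehicle-treated and 17.2, 18.1 and 14.4 CPM in PTH-treated WT libraries. Its Y428F values were 9.42, 13.2 and 13.1 CPM with vehicle and 11.2, 13.2 and 11.6 CPM with PTH. All WT libraries exceeded all Y428F libraries, and the treatments overlapped in both lines. It was 1.40-fold lower in Y428F cells with vehicle (log2 fold change -0.48, SE 0.14, adjusted p = 0.00609), a call lost without the third vehicle-treated WT library (-0.34, adjusted p = 0.0617), and 1.38-fold lower with PTH (adjusted p = 0.0082). With PTH its log2 fold change was -0.0054 in WT cells (95% interval -0.28 to 0.27) and 0.010 in Y428F cells (95% interval -0.28 to 0.30).

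*Ebf2*, known for its part in the brown and beige Adi program, had 5.55, 6.71 and 6.06 CPM in vehicle-treated and 3.54, 3.01 and 2.74 CPM in PTH-treated WT libraries. In Y428F cells it had 6.46, 5.31 and 6.23 CPM with vehicle and 4.88, 4.49 and 4.63 CPM with PTH. The lines overlapped with vehicle and separated with PTH, where the WT libraries were lowest. PTH lowered *Ebf2* 1.97-fold in WT cells (log2 fold change -0.98, SE 0.16, adjusted p = 2.09e-04), the largest change with PTH among the 10 genes in WT cells, exceeded by 12.7% of all genes. In Y428F cells its log2 fold change was -0.36 (95% interval -0.67 to -0.053, adjusted p = 0.127). Between the lines it was -0.027 with vehicle (95% interval -0.32 to 0.27, adjusted p = 0.901) and 0.59 with PTH (SE 0.16, adjusted p = 0.00476).

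*Gata3* encodes a GATA factor that binds C/EBP proteins and the *Pparg* promoter and keeps preadipocytes from differentiating. WT libraries had 11.5, 13.3 and 12.3 CPM with vehicle and 8.55, 8.61 and 7.28 CPM with PTH. Y428F libraries had 5.53, 6.07 and 6.39 CPM with vehicle and 5.27, 5.50 and 3.64 CPM with PTH. Here too the groups separated, with a narrow gap between the treatments in Y428F cells. *Gata3* fell 1.52-fold with PTH in WT cells (log2 fold change -0.60, SE 0.13, adjusted p = 0.00405), whereas in Y428F cells its log2 fold change of -0.32 (95% interval -0.63 to -0.0075, adjusted p = 0.192) was not called. Against WT cells it was 2.06-fold lower in Y428F cells with vehicle (adjusted p = 1.99e-06) and 1.70-fold lower with PTH (adjusted p = 2.08e-04). Thus both *Zfp467*, which promotes the Adi fate, and *Gata3*, which restrains it, were lower with PTH in WT cells and lower in Y428F cells.

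*Lpl* encodes lipoprotein lipase, which frees fatty acids from lipoproteins and is a direct PPARγ target in fat. It had 363, 307 and 320.2 CPM in vehicle-treated and 362, 361 and 329.9 CPM in PTH-treated WT libraries. In Y428F libraries it had 367, 368 and 368 CPM with vehicle and 405, 404 and 379 CPM with PTH. The treatments overlapped in WT cells, and the highest WT library lay just below the Y428F libraries. *Lpl* was 1.11-fold higher in Y428F cells with vehicle (log2 fold change 0.15, SE 0.062, adjusted p = 0.0496), a call that held in 2 of the 12 fits with 1 library left out, those without the first vehicle-treated or the third PTH-treated WT library (range of all 12 from 0.099 to 0.23, adjusted p from 0.00219 to 0.244). With PTH it was 1.13-fold higher (log2 fold change 0.17, SE 0.062, adjusted p = 0.0265), and this was lost without the third PTH-treated WT library (adjusted p = 0.106), the first PTH-treated Y428F library (0.0884) or the second (0.0956). With PTH its log2 fold change was 0.087 in WT cells (95% interval -0.043 to 0.22, adjusted p = 0.431), called only without the first vehicle-treated WT library (0.17, adjusted p = 0.0436), and 0.11 in Y428F cells (95% interval -0.022 to 0.24, adjusted p = 0.313).

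**Figure D2:**
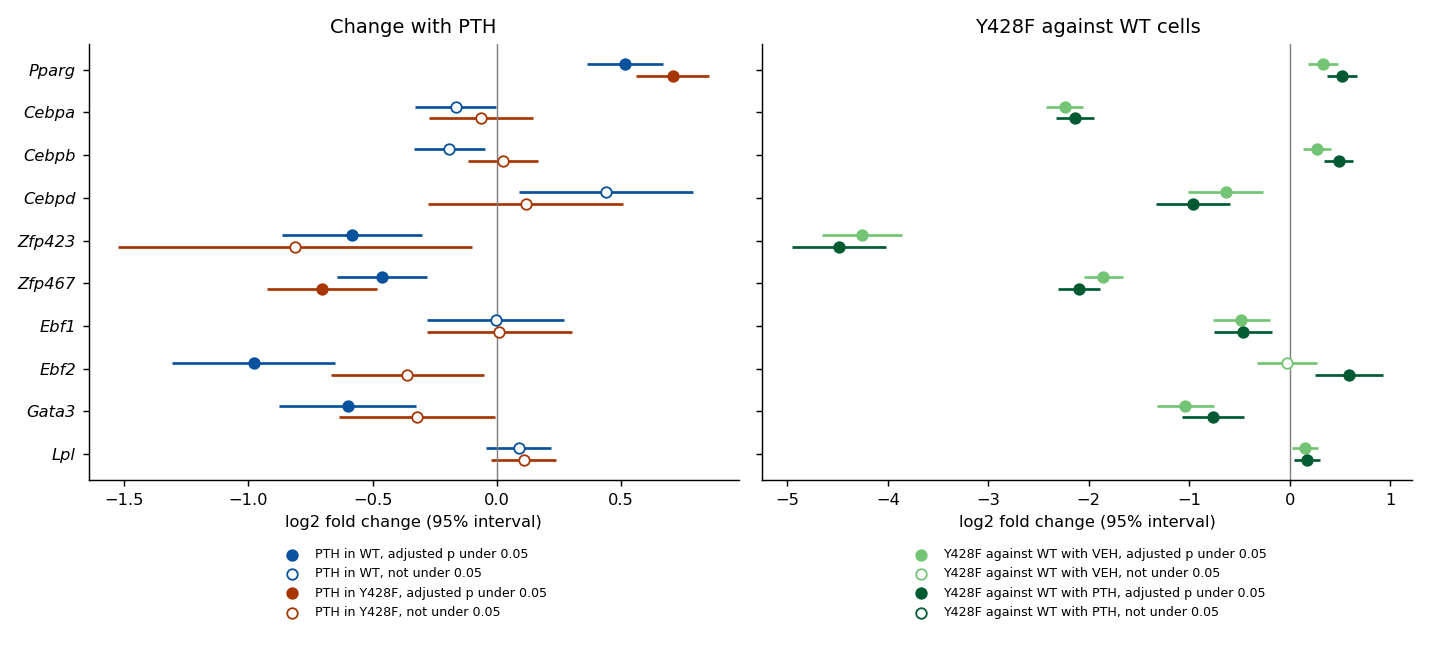
Log2 fold change (horizontal axes) of each of the 10 genes (vertical axis) with PTH in each line (left) and between the lines with each treatment (right), where points are the fitted values, filled at an adjusted p under 0.05, and lines their 95% intervals. *Pparg* lies to the right and *Zfp467* to the left of 0 in the PTH panel for both lines, and *Zfp423*, *Cebpa* and *Zfp467* lie farthest to the left in the panel of the lines.

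The response to PTH was also compared between the lines, with the WT log2 fold change subtracted from that of Y428F cells. None of the 10 genes was called, against 0.413% of all genes (0.170% higher and 0.243% lower), and DESeq2's Wald test called none of them either. At an unadjusted p under 0.05 there were 2 of the 10, *Ebf2* and *Cebpb*, and 1247 of all 17691 genes. The largest difference was that of *Ebf2*, whose fall was smaller in Y428F cells (log2 difference 0.62, 95% interval 0.17 to 1.07, edgeR adjusted p = 0.441). For *Cebpb* the difference was 0.22 (95% interval 0.016 to 0.42, edgeR adjusted p = 0.662). *Zfp467* changed by 0.24 more in the downward direction in Y428F cells (95% interval of the difference -0.53 to 0.043, adjusted p = 0.791), and *Pparg* by 0.19 more in the upward direction (95% interval -0.019 to 0.40, adjusted p = 0.762). The intervals of the other genes reached from the -0.98 of *Zfp423* to the 0.70 of *Gata3*. So the calls of *Zfp423*, *Ebf2* and *Gata3* with PTH in WT cells alone do not show that their responses differed between the lines.

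Levels can be compared between genes only per length, and CPM was therefore divided by the kilobases of merged exons. In vehicle-treated WT cells *Cebpb* was highest at 84.7 ± 4.09 CPM per kb (SD, n = 3), followed by *Lpl* at 27.0 ± 2.40, *Cebpa* at 17.5 ± 0.832, *Zfp467* at 6.06 ± 0.394 and *Pparg* at 4.55 ± 0.201 CPM per kb. Below them came *Gata3* at 2.72 ± 0.202, *Zfp423* at 2.46 ± 0.306, *Ebf1* at 1.70 ± 0.278, *Cebpd* at 0.952 ± 0.0829 and *Ebf2* at 0.815 ± 0.0774 CPM per kb. Neighbors in this order differed by more than their SDs, except *Gata3* and *Zfp423*, and *Cebpd* and *Ebf2*. In Y428F cells with PTH *Pparg* was at 9.33 ± 0.388 CPM per kb, above *Cebpa* at 3.54 ± 0.388, the reverse of vehicle-treated WT cells, and *Zfp467* was at 1.03 ± 0.183 CPM per kb. With the length of the canonical transcript, a choice made after seeing the data, 2 pairs of neighbors changed places in vehicle-treated WT cells, with *Ebf1* at 2.77 and *Zfp423* at 2.75 CPM per kb, and *Ebf2* at 1.20 and *Cebpd* at 0.952 CPM per kb. In PTH-treated WT cells *Lpl*, at 85.2 CPM per kb, then lay above *Cebpb* at 74.1 CPM per kb, and *Pparg*, at 16.5, above *Cebpa* at 15.6. The levels themselves moved more, to 80.2 CPM per kb for *Lpl*, 15.7 for *Zfp467* and 11.6 for *Pparg*.

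**Figure D3:**
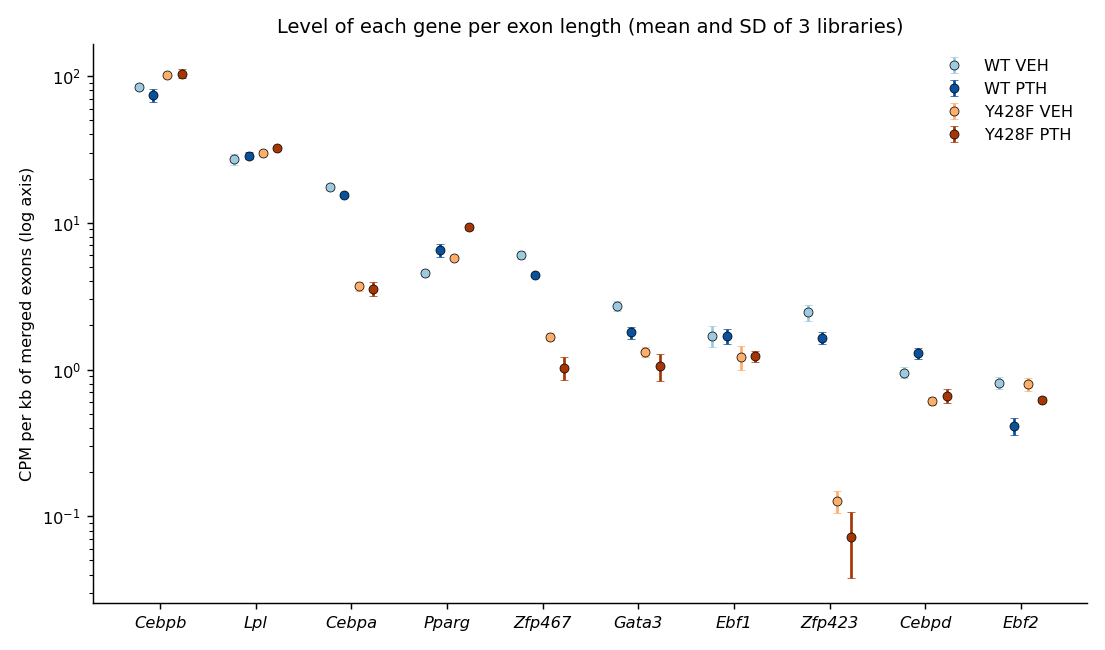
Expression per exon length in CPM per kb (vertical axis, logarithmic) of the 10 genes (horizontal axis, ordered by their mean over all libraries) in the 4 groups, with the mean and SD of 3 libraries. By merged exon length *Cebpb* was highest in every group, though *Lpl* exceeded it in PTH-treated WT cells by canonical length, and *Zfp423* spanned the widest range, from 2.46 in vehicle-treated WT cells to 0.0723 CPM per kb in PTH-treated Y428F cells.

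The genes around these factors were taken from lists of the Adi pathway. Among 18 regulators that promote it, 15 passed the filter on low counts, and 3 rose and 1 fell with PTH in WT cells (median log2 fold change 0.065, against -0.019 over all genes tested, of which 13.4% were called). *Klf5*, an inducer of *Pparg*, had 11.7, 15.2 and 13.8 CPM with vehicle and 23.0, 23.8 and 20.8 CPM with PTH in WT cells. No PTH-treated library was as low as a vehicle-treated one, and the log2 fold change was 0.73 (adjusted p = 6.67e-05). *Klf9*, another activator of *Pparg*, rose by 0.45 on the log2 scale (adjusted p = 6.57e-04) and the glucocorticoid receptor gene *Nr3c1* by 0.28 (adjusted p = 0.00222). In Y428F cells 5 of the 15 rose and 4 fell (median 0.097, against -0.0067 over all genes, of which 12.4% were called), among them *Klf9* (log2 fold change 0.83, adjusted p = 9.62e-07) and *Klf5* (0.78, adjusted p = 5.79e-05). *Egr2*, which acts early to induce *Cebpb*, rose most there (log2 fold change 2.29, adjusted p = 3.17e-05), from a level with vehicle below that of WT cells (log2 fold change between the lines -2.52, adjusted p = 5.37e-07). Its mean of 3.34 CPM in PTH-treated Y428F cells lay within the range of the vehicle-treated WT libraries, whose mean was 3.92 CPM. Between the lines with vehicle, 1 of the 15 was higher and 10 were lower in Y428F cells (median -0.33, against 0.012 over all genes, of which 22.4% were called higher and 22.7% lower). With PTH 2 were higher and 9 lower, where 22.8% of all genes were called higher and 23.0% lower. *Rxra*, the partner of PPARγ on DNA, was the most abundant of the list per kb of merged exons as a mean over all libraries (18.1 CPM per kb). This did not hold in vehicle-treated Y428F cells (13.7, against 16.2 for *Srebf1*) or by canonical length (22.7, against 26.2 for *Tle3*). *Rxra* was lower in Y428F cells by a log2 fold change of -0.84 with vehicle (adjusted p = 4.58e-09) and -1.03 with PTH (adjusted p = 2.59e-10). The coactivator gene *Ppargc1a* was lower by -1.69 with vehicle (adjusted p = 1.21e-08) and -1.30 with PTH (adjusted p = 3.77e-07).

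Of 15 regulators that restrain the Adi fate, 14 were tested. None rose and 3 fell with PTH in WT cells (median -0.030), while 2 rose and 2 fell in Y428F cells (median -0.11), against 13.4% and 12.4% of all genes called. Both counts depended on single libraries. The WT count was 5 without the first vehicle-treated WT library, 6 without the second, 5 without the third PTH-treated WT library, 8 without the first PTH-treated Y428F library and 5 without the second. The Y428F count of 4 ranged from 3 to 6 with 1 library left out and reached 7 under another setting. *Klf2*, a repressor of *Pparg*, had 29.1, 30.6 and 31.6 CPM with vehicle and 19.9, 19.7 and 19.6 CPM with PTH in WT cells. The vehicle-treated libraries were all above the PTH-treated ones, with a log2 fold change of -0.63 (adjusted p = 3.65e-05), and the gene also fell in Y428F cells (-0.72, adjusted p = 1.19e-05). *Wnt10b*, a Wnt ligand that blocks adipogenesis, fell in both lines (-0.30, adjusted p = 0.0139 in WT and -0.33, adjusted p = 0.0075 in Y428F cells), though the call in WT cells was lost without the second vehicle-treated library (adjusted p = 0.0636) or the first PTH-treated one (0.0615). *Klf3* fell in WT cells (-0.32, adjusted p = 0.00135), and *Foxc2* rose in Y428F cells (0.59, adjusted p = 7.52e-04). Between the lines with vehicle, 1 of the 14 was higher and 6 were lower in Y428F cells (median -0.21), and with PTH also 1 and 6 (median -0.14), so that 7 of the 14 were called where 45.1% and 45.7% of all genes were. The Wnt pathway repressor gene *Tcf7l1* (-1.73, adjusted p = 1.49e-12) and the chondrogenic factor gene *Sox9* (-1.58, adjusted p = 5.64e-11) were lowest with vehicle. *Tcf7l1* was counted in this list but is known to promote the adipogenic competence of precursor cells, so 1 of the 6 lower calls does not do what the list's name says.

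The C/EBP proteins are held in check by some members of their own family and by Tribbles pseudokinases, and 6 genes of these families were listed and tested. *Cebpe*, 1 of the 6, is not such an inhibitor and had at most 2 counts in any library. With PTH in WT cells 2 of the 6 fell, *Trib3* (log2 fold change -0.59, adjusted p = 7.86e-04) and *Ddit3* (-0.52, adjusted p = 2.79e-04), and in Y428F cells *Trib3* (-0.50, adjusted p = 0.00214), where the count of 1 became 2 without the third PTH-treated WT library. Of all genes 6.01% and 5.78% were called lower. *Trib2*, which targets C/EBPα for degradation, had 84, 130 and 135 counts with vehicle and 113, 141 and 154 counts with PTH in WT cells, and 0 counts in all 6 Y428F libraries. Against a floor of 3 counts per library it was at least 39.8-fold lower with vehicle and at least 48.6-fold lower with PTH. Between the lines with vehicle 2 of the 6 were higher in Y428F cells, *Trib1* (0.81, adjusted p = 1.45e-05) and *Trib3* (0.75, adjusted p = 3.85e-06), and 2 were lower, against 45.1% of all genes called.

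Of 10 listed relatives of these genes 8 were tested, of which PTH lowered 3 in the WT line and 2 in the Y428F line and raised none, against 6.01% and 5.78% of all genes called lower. The count of 2 fell to 1 in 6 of the 12 fits with 1 library left out, those without the third vehicle-treated or the first PTH-treated WT library, the first or the second vehicle-treated Y428F library, or the first or the third PTH-treated Y428F library, and was 3 without the third PTH-treated WT library. *Gata4* fell in WT (log2 fold change -0.59, adjusted p = 6.05e-04) and Y428F cells (-0.36, adjusted p = 0.0481), where the call held only without the first or the second vehicle-treated WT library, the third PTH-treated WT library or the third vehicle-treated Y428F library (adjusted p up to 0.163 in the other 8 fits with 1 library left out). *Ppard* fell in WT (-0.28, adjusted p = 0.00599) and Y428F cells (-0.27, adjusted p = 0.0097). *Zfp521*, the relative of *Zfp423* that opposes it, fell with PTH in WT cells (-0.78, adjusted p = 0.0139), a call lost without the first (adjusted p = 0.0687) or the third PTH-treated WT library (0.0624). Between the lines with vehicle 1 of the 8 was higher and 5 were lower in Y428F cells, against 22.4% and 22.7% of all genes. *Zfp521* was the higher one, with a mean of 9.35 CPM against 5.42 CPM in the WT line (log2 fold change 0.79, adjusted p = 9.94e-04), the direction opposite to that of *Zfp423*. *Ebf4* was lower (-3.00, adjusted p = 1.59e-06), as was *Gata4* (-1.09, adjusted p = 4e-08).

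For *Lpl*, 14 genes that handle the enzyme or its lipoproteins were listed, and 7 passed the filter. *Angptl4*, which inactivates lipoprotein lipase, had 150.5, 136 and 135 CPM with vehicle and 104, 108 and 113 CPM with PTH in WT cells, and 126, 123 and 127 CPM with vehicle and 92.3, 86.3 and 88.6 CPM with PTH in Y428F cells. Every PTH-treated library was below every vehicle-treated library, and it was the only one of the 7 called with PTH, lower in WT (log2 fold change -0.38, adjusted p = 1.07e-04) and in Y428F cells (-0.49, adjusted p = 7.12e-06), where 6.01% and 5.78% of all genes were called lower. Between the lines with vehicle, 4 of the 7 were lower in Y428F cells and none was higher, against 22.7% of all genes called lower and 22.4% higher. They include *Lmf1* (-0.55, adjusted p = 6.67e-07) and *Sel1l* (-0.27, adjusted p = 0.00139), both needed for the enzyme to mature. *Gpihbp1*, which carries the enzyme on capillaries, had at most 1 count in any library.

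Of 28 markers of mature fat cells 19 were tested, and *Adipoq*, *Retn*, *Cfd*, *Pck1* and *Ucp1* had 0 counts in all 12 libraries. With PTH 1 of the 19 rose and 2 fell in WT cells, and none rose and 3 fell in Y428F cells, against 13.4% and 12.4% of all genes called. Both counts rested on single libraries, since no marker was called in WT cells without the third vehicle-treated or the first PTH-treated WT library, and none in Y428F cells without the first vehicle-treated or the first PTH-treated Y428F library. *Lipe*, the hormone-sensitive lipase gene, fell in WT (log2 fold change -0.47, adjusted p = 0.0145) and Y428F cells (-0.54, adjusted p = 0.0228), calls that were lost in WT cells without the third vehicle-treated library (adjusted p = 0.0936) or the first (0.0568) or the second PTH-treated library (0.0506), and in Y428F cells without the first (0.0718) or the third vehicle-treated library (0.101) or the first (0.113) or the second PTH-treated library (0.0785). *Fabp4*, a fatty acid carrier gene driven by PPARγ, had 33.6, 23.4 and 23.7 CPM with vehicle in WT cells and 6.02, 6.42 and 7.26 CPM in Y428F cells. The lines did not overlap, and it was 4.10-fold lower in Y428F cells (-2.03, adjusted p = 8.67e-11), while *Lpl* and *Pparg* were higher. Between the lines with vehicle 6 of the 19 were higher and 5 lower in Y428F cells, and with PTH 7 and 5, against 45.1% and 45.7% of all genes called. *Cd36*, a fatty acid transporter gene, was higher in Y428F cells with vehicle (2.06, adjusted p = 2.41e-04), and *Lipe* was lower (-1.37, adjusted p = 3.18e-08). *Cd36* was scarce, with 5, 9 and 7 counts in vehicle-treated WT libraries against 23, 29 and 39 in vehicle-treated Y428F libraries. After PTH the lines overlapped, with 27, 17 and 12 counts in WT libraries against 28, 18 and 22 in Y428F libraries. *Cd36* was also the marker that rose with PTH in WT cells (1.52, adjusted p = 0.0197).

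**Figure D4:**
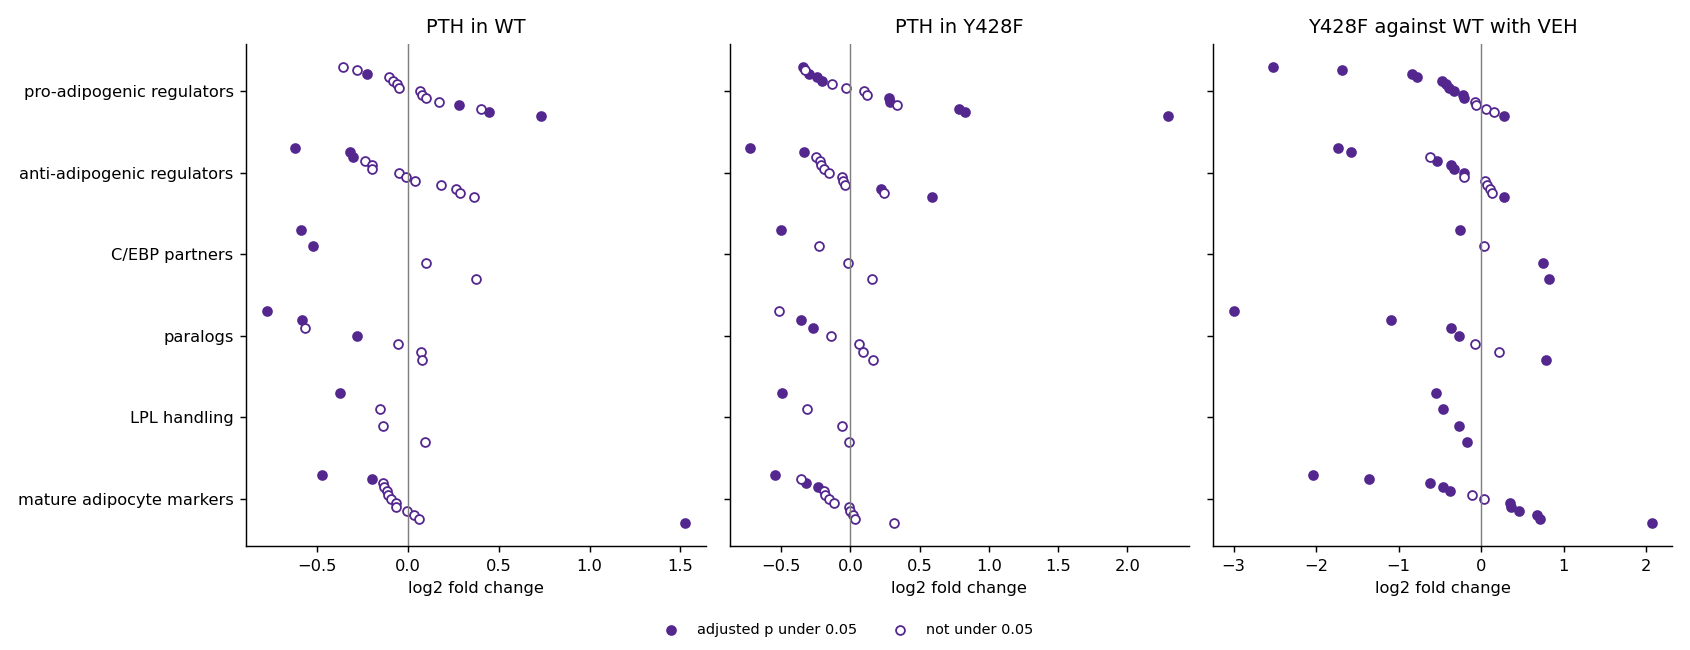
Log2 fold change (horizontal axes) of the genes of 6 lists with a mean of at least 1 CPM (rows, sorted within a list) with PTH in WT cells, with PTH in Y428F cells and between the lines with vehicle, where each point is a gene and filled points had an adjusted p under 0.05. *Trib2*, at 0 counts in Y428F cells, is not drawn. Regulators that promote the Adi fate lie mostly left of 0 between the lines, with 10 of 15 called lower, where 22.7% of all genes were.

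Markers of the cell type were read beside these differences. Of 12 stromal markers, *Itgb1*, *Eng*, *Cxcl12* and *Pdgfrb* were abundant, with *Itgb1* the highest, whereas *Thy1* had 0 counts in every library and *Nt5e* at most 2. Their summed level was 3568 to 3840 CPM in vehicle-treated and 3657 to 3939 CPM in PTH-treated WT libraries, and 2729 to 2766 CPM and 2742 to 2907 CPM in Y428F libraries. With vehicle 3 of the 10 tested were higher and 7 lower in Y428F cells, against 22.4% and 22.7% of all genes. The lower ones were led by *Vcam1* (log2 fold change -1.76), *Pdgfra* (-1.59) and *Pdgfrb* (-1.51). Higher were *Ly6a*, from a mean of 138 CPM in the WT line to 324 CPM, *Cd44* (118 to 135 CPM) and *Lepr*. *Lepr* was scarce, with 5, 1 and 2 counts in vehicle-treated WT libraries against 19, 21 and 18 in vehicle-treated Y428F libraries. With PTH 2 of the 10 rose and 4 fell in WT cells, and 1 rose and 1 fell in Y428F cells, against 13.4% and 12.4% of all genes called. The 6 calls in WT cells became 3 without the second or the third vehicle-treated or the first PTH-treated WT library. *Pdgfra*, which marks Adi progenitors, fell in both lines (-0.60, adjusted p = 1.12e-04 in WT and -0.73, adjusted p = 7.17e-05 in Y428F cells). *Cd44* rose in both (0.33, adjusted p = 4e-04 and 0.31, adjusted p = 8.65e-04). Of 13 blood and endothelial markers 7 were tested, and their summed level was 1.54 to 2.7 CPM in WT and 27.3 to 30.8 CPM in Y428F libraries. All 3 markers called were higher in Y428F cells with vehicle, namely *Ly6g*, *Cdh5* (3.28, adjusted p = 1.13e-10) and *Ptprc* (1.70, adjusted p = 2.37e-05), so that 3 of the 7 were called higher where 22.4% of all genes were. In Y428F libraries *Ly6g* was the most abundant and made up most of the sum, with 313 to 339 counts per library, against 0 to 2 per WT library. *Cd3e*, *Mpo* and *Elane* were at 0 in every library. Of 8 markers of the OB lineage 5 were tested, with *Col1a1* the most abundant and *Runx2* at 90.2 CPM in vehicle-treated WT cells, and *Dlx5* was at 0 in every library. With vehicle *Spp1* (-0.65, adjusted p = 8.56e-08), *Col1a1* (-0.37, adjusted p = 0.00245) and *Runx2* (-0.30, adjusted p = 9.19e-04) were lower in Y428F cells and none was higher, against 22.7% of all genes called lower. *Col1a1* alone of the 5 was called with PTH in Y428F cells, where 5.78% of all genes were called lower (-0.33, adjusted p = 0.0218), a call lost without the first vehicle-treated (adjusted p = 0.115) or the first PTH-treated Y428F library (0.124). The part of these markers in the differences of the 10 genes was not tested. In bulk RNA, fewer cells of a type and less RNA per cell cannot be told apart.

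Each gene was also set beside the genes within 2 Mb that had a mean of at least 4 CPM. *Zfp467* had 27 such neighbors, with a median log2 difference between the lines of -0.27 with vehicle and a lowest value of -0.79 (*Krba1*), against its own -1.86. The 17 neighbors of *Cebpa* had a median of 0.11 and a lowest value of -0.30 (*Wtip*), and the 11 of *Zfp423* a median of -0.036 and a lowest value of -0.70 (*N4bp1*). Hence no neighbor of these 3 genes, nor of *Gata3* or *Cebpd*, was as low as the gene itself. *Gata3* differed from the rest in that all 9 of its neighbors were lower in Y428F cells, with a median of -0.38. Of the 55 neighbors of *Lpl*, 47 were lower (median -0.33), whereas *Lpl* was higher.

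**Figure D5:**
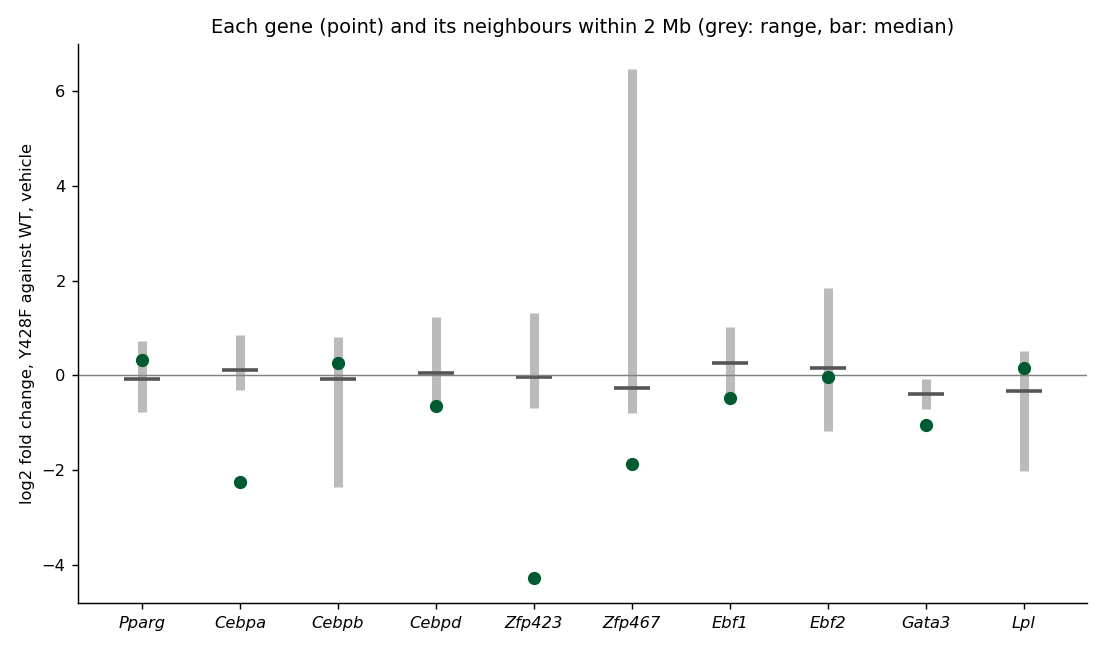
Log2 fold change between the lines with vehicle (vertical axis) of each of the 10 genes (points) and of its neighbors within 2 Mb on the chromosome (gray bars for the range, dark lines for the median). *Cebpa*, *Cebpd*, *Zfp423*, *Zfp467* and *Gata3* lie below the range of their neighbors, and the high end at *Zfp467* is *Gpnmb* at 6.45.

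The pattern of each gene over the 12 libraries was compared with that of 11217 other genes as the root mean square (RMS) difference of log2 CPM, each gene centered on its own mean. *Tmem140* (0.15), *Sned1* (0.16) and *Ccn5* (0.16) were nearest to *Zfp467*. The nearest to *Pparg* were *Gse1* (0.10), *Wdr43* (0.10) and *Lats2* (0.10), and to *Cebpa* they were *Clca3a1* (0.083), *Sdc3* (0.086) and *Mc5r* (0.091). *Zfp423* had no gene as near, with *Rtp4* at 0.25, *Man1c1* at 0.34 and *Ifit1* at 0.38. The nearest gene lay at an RMS between 0.036 for *Lpl* (*Efr3a*) and 0.25 for *Zfp423*, and none of the 10 was nearest to another.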

How the data were processed

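Bulk RNA-Seq of 12 libraries was analysed. Per the labels and methods, the authors mapped reads with STAR 2.7.10b to GRCm39 and deposited RSEM expected counts per gene, not scaled for depth or length. After rounding they entered edgeR 4.0.16 under R 4.3.3 (TMM, glmQLFit, glmQLFTest, Benjamini-Hochberg) over 17691 genes, each with 10 or more counts in sum. All 4 groups entered 1 fit, so that every comparison shares 1 estimate of the spread. Intervals cover 95%. Libraries of 1 group varied beyond counting noise (chi-square per degree of freedom 2.87 to 14.2). Groups came from the titles.

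The 10 genes and the lists were chosen with earlier results of these data known. Beyond the 10, up to 3 called genes with the largest change in each list and comparison (mean of at least 1 CPM) were named, with the most abundant per kb and, for each of the 10, up to 3 with the nearest profile. Some other list genes are given by their levels alone. Alternatives were DESeq2 1.42.0, its size factors, library totals, other filters and limits, each line fitted alone, the replicate number as a block, and each library left out. The edgeR fit was tried on simulated counts for PTH in WT cells, the lines with vehicle and the difference between responses. The other comparisons and DESeq2 were not tried in this way. Positions and lengths came from GENCODE vM39, which 56236 gene identifiers matched (744 did not), and promoters from RefSeq (GRCm38.p6), placed by exact match in GRCm39. No values of the authors' own comparisons were used. The value of 1 listed blood marker is not reported here.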

Additional observations from a re-analysis of the deposited data

Results flagged for a closer look

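*Egr2*, a zinc finger factor gene from the list of Adi regulators, stood out because its response to PTH differed between the lines. In WT cells it had 2.33, 5.40 and 4.02 CPM with vehicle and 6.13, 4.8 and 4.54 CPM with PTH, and in Y428F cells 0.767, 0.657 and 0.601 CPM with vehicle and 3.38, 3.65 and 2.97 CPM with PTH. The change was 1.89 larger on the log2 scale in Y428F cells (SE 0.39, adjusted p = 0.0289, edgeR's quasi-likelihood test). The call was kept without the first vehicle-treated or the first PTH-treated WT library and lost in the other 10 fits with 1 library left out, in which the adjusted p was 0.0506 to 0.117.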

How the results depend on the processing

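Of the log2 fold changes of the 10 genes, 311 kept their direction and call under settings other than leaving out a library, 3 (of *Cebpb* with PTH in WT cells) passed the limit only there, and 6 changed sign. With library totals these were *Cebpb* (-0.015) and *Ebf1* (-0.031) with PTH in Y428F cells and *Ebf2* between the lines with vehicle (0.029). With 10 counts in every library of a group they were *Ebf1* in WT cells given PTH (0.0094) and in the difference between responses (-0.0019), and with the WT libraries alone *Ebf1* (0.0012). Leaving out 1 library changed the sign of some values, none of them called, the largest being the *Zfp423* difference between responses (-0.23, and 0.11 without the third PTH-treated Y428F library). The ranges were -0.090 to 0.14 for *Ebf1* in WT cells given PTH, and in Y428F cells -0.13 to 0.092 for *Ebf1*, -0.027 to 0.068 for *Cebpb* and -0.14 to 0.019 for *Cebpa*. For *Ebf2* between the lines with vehicle the range was -0.093 to 0.054, and for the difference between responses it was -0.063 to 0.064 (*Lpl*), -0.13 to 0.10 (*Ebf1*) and -0.45 to 0.11 (*Zfp423*). Replicate numbers did not pair the libraries (mean correlation of deviations 0.0022 over 18 pairs, lowest -0.15, and 4 of 12 libraries nearest to their own number). With the replicate number as a block 5, 2, 9, 10 and 0 of the 10 genes were called in the 5 comparisons, the counts without it. Genes called for the difference between responses were 30 higher and 43 lower, but 51 and 72 with DESeq2's Wald test and 96 and 120 with no filter. They fell to 6 and 18 without the third PTH-treated Y428F library and to 7 and 24 without the second vehicle-treated Y428F library. Counts of calls there thus depend on the method and on single libraries. Between the lines library totals gave 4565 higher and 3552 lower with vehicle, against 3966 and 4020. With an adjusted p under 0.01 the mature fat cell markers had 0 calls with PTH in either line in place of 3. With only 3 libraries per group and few counts of *Zfp423* in Y428F cells, small changes could not be resolved.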
